A study of Mus musculus with 32 samples.

Results

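The Egr and Ier early response genes are a set of 8 genes: Egr1, Egr2, Egr3, Egr4, Ier2, Ier3, Ier5 and Btg2. They were chosen by name, as the rows of the deposited striatum and cortex profiles that carry one of these symbols, out of 18061 gene symbols on the array. Each of the 8 was read by 1 probe. Bead arrays were hybridised with RNA of the right striatum and right cortex of male wild-type mice of the C57BL/6J background, 8 to 10 weeks old. A suture blocked the middle cerebral artery for 2 h and was then withdrawn, so that blood returned, a stroke model termed ischaemia and reperfusion (I/R). Reperfusion lasted 2, 8 or 24 h, and sham mice had only the anaesthetic and the neck incision. Each tissue thus has 4 groups of 4 arrays: sham, 2 h, 8 h and 24 h. No group carries a mutation, and the infarct was taken as whole tissue, with all its cell types mixed. How long after surgery sham mice were killed, and which arrays share an animal, is not given in the sources used here.

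Early response genes are transcribed within minutes of a stimulus without new protein being made. Growth factor, calcium and stress signals reach them through the ERK kinases, which act on serum response factor and its Ets-domain partners at their promoters. Egr1 to Egr4 encode zinc-finger transcription factors of one family, which in neurons follow synaptic activity and are held in check by the corepressors Nab1 and Nab2. Egr2 is also the master factor of myelination in Schwann cells. Ier2 and Ier5 encode small related nuclear proteins, Ier3 encodes a membrane-associated stress protein linked to cell survival, and Btg2 encodes an antiproliferative protein that binds the CCR4-NOT deadenylases.

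Median signals per array were 57.2 to 103.7 intensity units over the 16 striatum arrays and from 70.0 to 88.7 over the 16 cortex arrays, and the number of arrays limits the precision. The summed normalized level of the cortical excitatory neuron markers was 732 to 1226 in sham striatum and 3216 to 4551 in sham cortex. Their member Neurod6 was not detected on any array, nor were the neuron markers Snap25 and Nefl, so an undetected probe does not show that a transcript is missing. Striatal projection neuron markers summed to 4127 to 9016 in sham striatum and 5078 to 6339 in sham cortex, so they did not separate the tissues. Replicates are not stated to be separate animals, and p-values measure only the spread between these arrays. The place of an array on its slide went with its group, so place and group cannot be told apart.

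Of the 8 genes, 4 gave a measurable level in both tissues: Egr1, Egr2, Egr4 and Ier3. At 2 h of reperfusion all 4 had a higher mean than sham in both tissues. The difference for Egr1 in cortex passed the test, and those of the other genes did not. At 8 h the arrays of Egr1 and Egr2 overlapped sham in both tissues, as they already did at 2 h in striatum. Those of Egr4 overlapped sham in striatum and lay below it in cortex. The share of all genes lying apart from sham was counted at 2 h only. The falls of all 3 Egr genes in cortex and of Egr4 in striatum, from 2 h to 8 h or to 24 h, passed the test. At 24 h against sham, the rise of Ier3 in striatum passed the test. The test throughout was limma's moderated test with Benjamini-Hochberg adjustment over all genes of a comparison, 2-sided, with a threshold of 0.05 on the adjusted p.

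At 2 h against sham in striatum, 0 of the 4 measurable genes passed the test in limma, where 0.121% of 9945 genes were called higher and 0.0603% lower. All 4 had an unadjusted p under 0.05, and Egr4 and Ier3 passed with array weights or with the compared groups fitted alone. Of the 4, 2 had all 2 h arrays above all sham arrays, as had 3.63% of genes. In cortex at 2 h, 1 of 4 was called higher, against 0.56% of 9644 genes called higher and 0.643% lower, and 4 of 4 had all arrays above sham, against 6.27% of genes. Egr2, Egr4 and Ier3 in cortex passed as well with array weights or with the compared groups alone, and Egr1 missed the threshold with no detection filter, no variance trend or the tissue table. The median change of the 4 at 2 h was 1.41 in striatum and 1.13 in cortex, beside -0.01 in both over all genes tested.

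At 8 h against sham 0 of the 4 genes were called in limma in either tissue, where 1.73% of genes were called higher and 1.76% lower in striatum and 3.62% and 3.34% in cortex. At an unadjusted p under 0.05 there was 1 in striatum and 0 in cortex, and Ier3 in striatum (adjusted p = 0.0483) and Egr4 in cortex (0.0094) passed with the compared groups fitted alone. At 24 h 1 of 4 was called higher in striatum (9.33% of genes higher, 8.22% lower) and 0 of 4 in cortex (6.89% and 7.17%), with 1 at an unadjusted p under 0.05 in each tissue. Ier3 in cortex passed at 24 h with array weights (adjusted p = 0.0091) or slide as a block (0.0356), slide as a random block (0.0378) or the replicate block (0.0301). From 2 h to 8 h, 1 of 4 was called lower in striatum (0.674% of genes, with 0.201% higher) and 2 of 4 in cortex (0.332%, with 0.342% higher). From 2 h to 24 h, 1 of 4 was called lower in striatum (8.6% of genes, with 9.72% higher) and 3 of 4 in cortex (7.21%, with 6.41% higher). From 8 h to 24 h 0 of 4 were called in limma in either tissue, with 0 at an unadjusted p under 0.05, where 6.25% of genes were called higher and 7.38% lower in striatum and 3.21% and 3.44% in cortex.

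**Figure D1:**
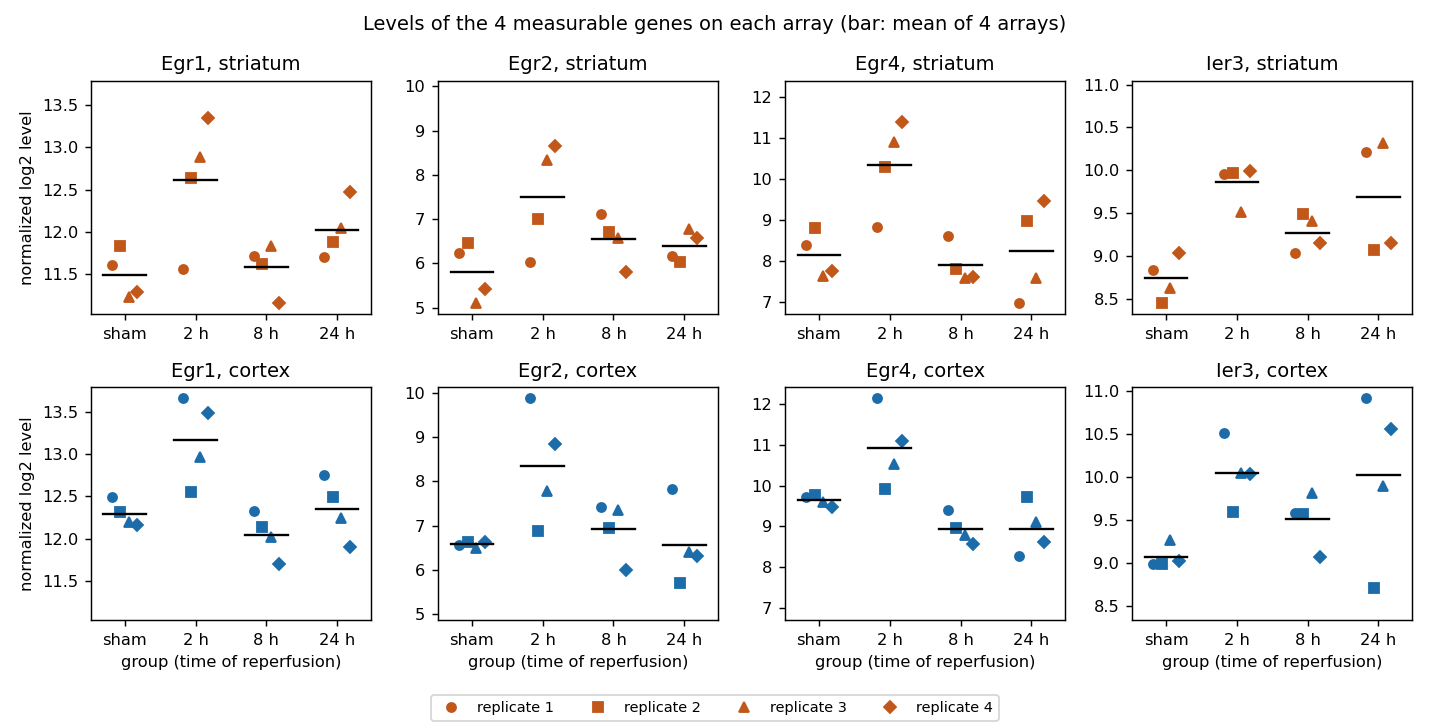
Normalized log2 level of Egr1, Egr2, Egr4 and Ier3 (columns) on each striatum array (upper row) and cortex array (lower row) by group. Symbols are replicates 1 to 4 and the bar is their mean. Egr4 on the cortex arrays lies between 9.92 and 12.14 at 2 h, above all 4 sham arrays, and its 8 h arrays all lie below sham. The share of all genes that lie below sham in this way was not counted.

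Egr1, the family member most studied as an activity marker, was detected on all 32 arrays. On the cortex arrays its normalized log2 level in replicates 1 to 4 was 12.49, 12.31, 12.19 and 12.16 in sham and 13.66, 12.55, 12.96 and 13.48 at 2 h. The 8 h arrays had 12.32, 12.13, 12.02 and 11.70, and the 24 h arrays had 12.75, 12.49, 12.25 and 11.89. All 4 of the 2 h arrays lay above all 4 sham arrays, while the 8 h and 24 h arrays overlapped sham. Egr1 rose 1.83-fold in cortex at 2 h against sham (log2 change 0.87 ± 0.20, SE, adjusted p = 0.0441, n = 4 arrays each). Against 2 h it fell by 1.12 on the log2 scale at 8 h (adjusted p = 0.0161), and its log2 change at 24 h was -0.82 (adjusted p = 0.0139). In whole tissue, fewer cells of a type and less RNA per cell cannot be told apart.

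The 2 h rise of Egr1 in cortex was near the threshold. Its adjusted p was 0.0748 with no detection filter, 0.0684 with no variance trend and 0.0622 with the tissue table. It missed the threshold in 10 of the 16 fits that left out 1 array of the cortex (adjusted p 0.058 to 0.148). The arrays concerned were sham replicates 1 to 4, 2 h replicates 1, 3 and 4, 8 h replicates 2 and 3, and 24 h replicate 3. The difference was positive within each of the 3 slides that hold both groups, at 0.36 to 1.32, and 0.98 ± 0.18 (SE) with slide as a block. The fall to 8 h missed the threshold without 2 h replicate 1 (adjusted p = 0.0576), 2 h replicate 4 (0.0576) or 8 h replicate 3 (0.0523). The fall to 24 h missed it without 2 h replicate 4 (adjusted p = 0.0514) or 24 h replicate 4 (0.0551), and with the compared groups alone (0.0637).

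On the striatum arrays the log2 level of Egr1 was 11.61, 11.84, 11.23 and 11.29 in sham and 11.56, 12.64, 12.89 and 13.34 at 2 h. At 8 h the arrays had 11.71, 11.62, 11.84 and 11.16, and those of 24 h had 11.70, 11.89, 12.05 and 12.47. At 2 h, 3 arrays lay above all sham arrays and replicate 1 lay among them. The mean difference was 1.12 ± 0.27 (SE, n = 4 arrays each) and did not pass the test (adjusted p = 0.0966). Of all fits and settings run, it passed only without 2 h replicate 1, the lowest 2 h array, at 1.47 (adjusted p = 0.0034). Without that array the falls after 2 h also passed, at -1.38 to 8 h (adjusted p = 0.0039) and -0.93 to 24 h (adjusted p = 0.0114), against -1.03 (0.0847) and -0.58 (0.144) with it. The fall to 8 h also passed with array weights (-1.10, adjusted p = 0.0375). Within the 3 slides that hold both groups, the 2 h difference ran from -0.16 to 1.60.

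Egr2 lay close to the detection limit in sham, with deposited signals of 75.2 to 160 units in striatum and 122 to 136 units in cortex. It was detected on 15 of 16 striatum arrays and 16 of 16 cortex arrays. On the cortex arrays the log2 level was 6.57, 6.63, 6.49 and 6.63 in sham and 9.88, 6.87, 7.78 and 8.84 at 2 h. The 8 h arrays had 7.41, 6.96, 7.35 and 6.01, and the 24 h arrays had 7.83, 5.69, 6.41 and 6.31. The 2 h arrays all lay above sham but spread over 3 log2 units, from replicate 1 down to replicate 2. The difference of 1.76 ± 0.50 (SE, n = 4 each), 3.39-fold, did not pass the test (adjusted p = 0.0879). It passed without 2 h replicate 2 (2.25, adjusted p = 0.0218) or without 24 h replicate 1 (1.76, adjusted p = 0.0466), and with slide as a block (1.97, adjusted p = 0.032). It also passed with slide as a random block (adjusted p = 0.0491), the replicate block (0.0363), array weights (0.0114) or the compared groups alone (0.0311). Within slides it was 0.38 to 3.29.

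Egr2 fell by 1.78 on the log2 scale in cortex at 24 h against 2 h (adjusted p = 0.0252). This call was lost without 2 h replicate 1 (adjusted p = 0.0748), 2 h replicate 4 (0.0771), 24 h replicate 3 (0.0531) or 24 h replicate 4 (0.0679), and with the compared groups alone (0.0961). In striatum the log2 level of Egr2 was 6.25, 6.47, 5.10 and 5.42 in sham and 6.03, 6.99, 8.35 and 8.66 at 2 h. At 8 h the arrays had 7.13, 6.70, 6.58 and 5.81, and those of 24 h had 6.16, 6.04, 6.79 and 6.57. The 2 h and sham arrays overlapped through 2 h replicate 1, and the mean difference was 1.70 ± 0.45 (SE, adjusted p = 0.139). Without that array it was 2.19 (adjusted p = 0.018). The fall from 2 h to 24 h, -1.12 with all arrays (adjusted p = 0.0923), was then -1.61 (adjusted p = 0.0169). Neither difference passed in any other fit or setting run.

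Egr4, a family member found mainly in neurons, had the largest mean difference of the 4 genes in striatum at 2 h. Its striatum log2 level was 8.39, 8.80, 7.63 and 7.76 in sham and 8.82, 10.29, 10.91 and 11.41 at 2 h. The 8 h arrays had 8.62, 7.80, 7.57 and 7.61, and the 24 h arrays had 6.96, 8.97, 7.58 and 9.46. All 4 of the 2 h arrays lay above sham, replicate 1 by only a little. The difference of 2.21 ± 0.52 (SE, n = 4 each), 4.63-fold, did not pass the test (adjusted p = 0.0832), and passed without 2 h replicate 1 (2.72, adjusted p = 0.0167) or 24 h replicate 1 (2.21, adjusted p = 0.0482). With all arrays it passed under array weights (adjusted p = 0.0259) or with the compared groups alone (0.0271). Within slides it was 0.23 to 3.15.

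In striatum Egr4 fell by 2.46 on the log2 scale at 8 h against 2 h (adjusted p = 0.0308), and its log2 change at 24 h against 2 h was -2.11 (adjusted p = 0.0116). The second call held in all 16 fits that left out 1 striatum array. The first was lost in 6 of them, those without 2 h replicate 2, 3 or 4 or without 8 h replicate 2, 3 or 4 (adjusted p 0.0667 to 0.131), and with the value table of the series (0.082). All 4 slides showed both falls.

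On the cortex arrays the log2 level of Egr4 was 9.71, 9.78, 9.60 and 9.46 in sham and 12.14, 9.92, 10.54 and 11.09 at 2 h. At 8 h the arrays had 9.40, 8.96, 8.79 and 8.56, and those of 24 h had 8.28, 9.72, 9.10 and 8.61. The 2 h difference of 1.28 ± 0.35 (SE), 2.43-fold, did not pass the test (adjusted p = 0.0805) although the arrays of the groups did not overlap. It passed without 2 h replicate 2 (1.62, adjusted p = 0.0197) or 24 h replicate 2 (1.28, adjusted p = 0.0422). With all arrays it passed under array weights (1.08, adjusted p = 0.0107) or with the compared groups alone (1.28, adjusted p = 0.0311). Egr4 fell by 1.99 on the log2 scale at 8 h against 2 h (adjusted p = 0.0129), and its log2 change at 24 h against 2 h was -1.99 (adjusted p = 0.00167). Both falls held in all 16 fits that left out 1 cortex array and in all 15 other settings.

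Against sham, Egr4 in cortex stood at -0.71 ± 0.35 (SE) at 8 h, with all 4 arrays below all 4 sham arrays, and at -0.71 ± 0.35 at 24 h. Neither difference passed the test (adjusted p = 0.231 and 0.177), and the one at 8 h passed with the compared groups alone (adjusted p = 0.0094), the one at 24 h without 24 h replicate 2 (-0.98, adjusted p = 0.043). The share of all genes with every 8 h array below sham was not counted.

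**Figure D2:**
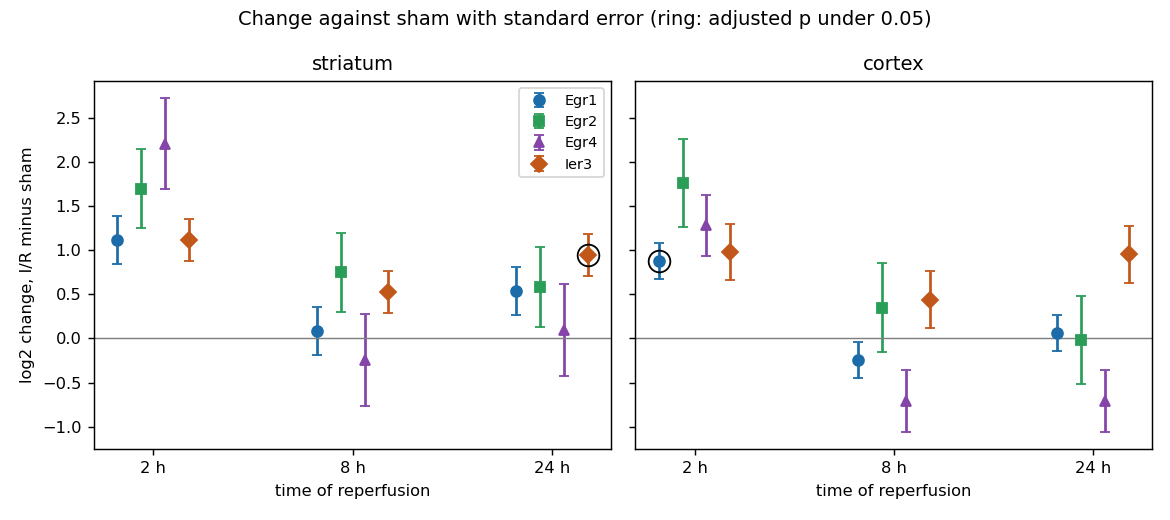
Log2 change of each measurable gene against the sham arrays of its tissue at 2, 8 and 24 h (points) with its standard error (bars), in striatum (left) and cortex (right). Rings mark the 2 changes past the threshold, Egr1 in cortex at 2 h (0.87) and Ier3 in striatum at 24 h (0.95).

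Ier3, the stress-induced survival gene, was detected in both tissues. On the striatum arrays its log2 level was 8.85, 8.45, 8.64 and 9.04 in sham and 9.95, 9.97, 9.52 and 10.00 at 2 h. The 8 h arrays had 9.03, 9.50, 9.41 and 9.16, and the 24 h arrays had 10.21, 9.08, 10.32 and 9.16. The 2 h and the 24 h arrays all lay above all 4 sham arrays. The share of all genes that did so was counted at 2 h only. Ier3 rose 1.93-fold in striatum at 24 h against sham (log2 change 0.95 ± 0.24, SE, adjusted p = 0.0118). This call held in all 16 fits that left out 1 striatum array and was lost with the value table of the series (0.87, adjusted p = 0.0619). The difference was 0.44 to 1.56 within slides and 1.01 with slide as a block.

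The 2 h difference of Ier3 in striatum, 1.12 ± 0.24 (SE), did not pass the test (adjusted p = 0.0642). It passed without any 1 of the 4 arrays of the 24 h group (adjusted p 0.025 to 0.0334), which enter the shared estimate of spread only. It passed too with array weights (adjusted p = 0.0133) or with the compared groups alone (0.0015). At 2 h it was positive within slides, at 0.48 to 1.34. Replicate 1, the 2 h array on which the 3 Egr genes were lowest, had an Ier3 level of 9.95, near the highest.

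On the cortex arrays the log2 level of Ier3 was 8.99, 8.98, 9.27 and 9.02 in sham and 10.51, 9.59, 10.05 and 10.03 at 2 h. At 8 h the arrays had 9.57, 9.57, 9.81 and 9.06, and those of 24 h had 10.92, 8.70, 9.90 and 10.55. The 2 h arrays lay above sham, but the difference of 0.98 ± 0.32 (SE) did not pass the test (adjusted p = 0.145). It passed without 24 h replicate 2 (0.98, adjusted p = 0.0183). With all arrays it passed under array weights (0.97, adjusted p = 0.0049) or with the compared groups alone (0.98, adjusted p = 0.002). At 24 h, 3 arrays lay above all sham arrays and replicate 2 lay below them. The 24 h difference of 0.95 ± 0.32 (SE, adjusted p = 0.0553) did not pass the test with all arrays and was 1.39 without replicate 2 (adjusted p = 0.000202). Its difference from 8 h, 0.51 with all arrays (adjusted p = 0.348), was 0.95 without that array (adjusted p = 0.0072).

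Promoter sequence was looked up for the genes other than Egr1, to show whether the motifs known to drive early response genes are present. Windows from 250 bases before to 50 bases after a gene start came from RefSeq (build GRCm38.p6). They were found for 5 of the 8 genes and not for Egr3 or Ier2. Egr1 was left out of the search, so whether its promoter holds these motifs was not tested. Shown are Egr2 (chr10:67537619-67537918, plus strand), Egr4 (chr6:85513540-85513839, minus strand) and Ier3 (chr17:35821463-35821762, plus strand), each 5′ to 3′ on the gene's own strand. Capitals mark a CArG box (the binding motif of serum response factor) or a CRE core (TGACG on either strand, bound by CREB).
Egr2: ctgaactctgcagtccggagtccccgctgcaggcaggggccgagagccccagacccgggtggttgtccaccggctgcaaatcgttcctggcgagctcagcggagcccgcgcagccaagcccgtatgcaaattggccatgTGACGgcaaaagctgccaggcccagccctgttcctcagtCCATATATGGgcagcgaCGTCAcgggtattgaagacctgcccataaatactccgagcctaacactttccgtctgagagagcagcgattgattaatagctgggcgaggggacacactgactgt
Egr4: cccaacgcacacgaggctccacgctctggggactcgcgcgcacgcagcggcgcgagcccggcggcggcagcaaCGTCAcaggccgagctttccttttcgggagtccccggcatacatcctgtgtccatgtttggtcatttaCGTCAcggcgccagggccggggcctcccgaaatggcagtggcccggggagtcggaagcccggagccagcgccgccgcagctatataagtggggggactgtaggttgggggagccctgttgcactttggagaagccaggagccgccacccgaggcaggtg
Ier3: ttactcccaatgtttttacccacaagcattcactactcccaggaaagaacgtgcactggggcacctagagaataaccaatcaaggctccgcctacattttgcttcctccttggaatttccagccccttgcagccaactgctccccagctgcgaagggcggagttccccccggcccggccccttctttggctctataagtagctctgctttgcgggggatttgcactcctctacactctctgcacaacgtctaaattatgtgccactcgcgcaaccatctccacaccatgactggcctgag

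The Egr2 window held a CArG box, which began 72 bases before the start, and 2 CRE cores, at 111 and 55 bases before it, with no overlap between them. It is 1 of 5 windows listed for Egr2, of which 2 more overlap it closely and hold the same motifs. Of the other 2, the one starting at base 67537316 held a CArG box and no CRE core, and the one starting at base 67535249 held neither. The Egr4 window held 2 CRE cores, at 177 and 109 bases before the start, and no CArG box. The Ier3 window held neither of these motifs. CArG boxes occurred in 1.63% of all 32851 windows of this length and CRE cores in 20.8%. The Egr site GCGNGGGCG, in 5.55% of windows, was absent from all 3 windows shown, and the Ets core GGAAG, in 71.4%, occurred once in the Egr4 and Ier3 windows. The Btg2 window held 1 Egr site, 1 Ets core and 2 CRE cores. These cores began 166 and 163 bases before the start and overlap, as 1 stretch matched on both strands. The window of Ier5 held 1 Ets core. Btg2 and Ier5 were not measurable, so their windows cannot be set beside a 2 h change. A match of letters describes the window and does not show that a factor binds there.

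The size of the 2 h difference varied between arrays in step for the Egr genes. In striatum all 3 Egr genes were highest on replicate 4, then 3, then 2, and lowest on replicate 1. Against the sham mean, replicate 1 stood at 0.07 for Egr1, 0.22 for Egr2 and 0.68 for Egr4, and replicate 4 at 1.85, 2.85 and 3.26. In cortex all 3 were highest on replicate 1, then 4, then 3, and lowest on replicate 2, with replicate 1 at 1.37 for Egr1 and 2.50 for Egr4 and replicate 2 at 0.26 and 0.28. A list of other early response genes moved the same way, with 42 genes measured in striatum and 40 in cortex. Its median against sham was 0.24, 0.66, 0.90 and 1.01 on striatum replicates 1 to 4 and 1.17, 0.34, 0.48 and 0.83 on cortex replicates 1 to 4.

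**Figure D3:**
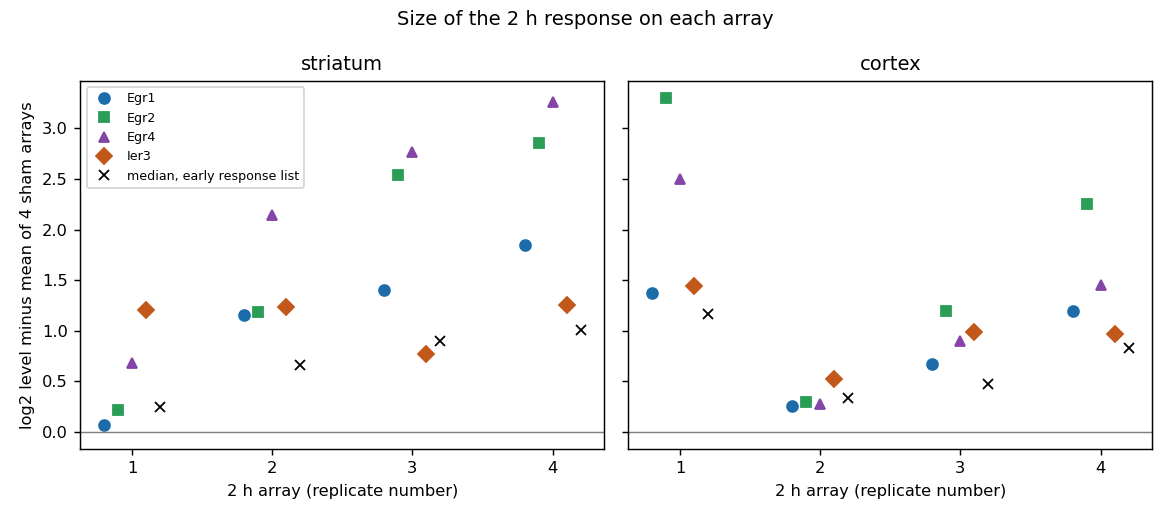
Log2 level of each measurable gene at 2 h minus the mean of the 4 sham arrays, on each 2 h array of striatum (left) and cortex (right), with the median over the list of other early response genes (crosses). The Egr genes are lowest on striatum replicate 1 and cortex replicate 2, where the list medians are lowest too, at 0.24 and 0.34.

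Markers of blood and vessels were summed on the same arrays. The 3 blood genes on the array summed to 328 to 7968 in striatum at 2 h and 121 to 144 in sham, with Alas2 undetected in sham. In cortex they summed to 270 to 1547 at 2 h and 102 to 119 in sham, with Alas2 undetected in both and Hbb-bt in sham. By array the striatum 2 h sums were 6148, 7968, 377 and 328 and the cortex sums 1547, 270, 552 and 413 for replicates 1 to 4. The arrays with the lowest Egr levels thus had the second-highest blood sum in striatum and the lowest in cortex. The 5 endothelium markers, all detected, summed to 939 to 1285 at 2 h and 1393 to 1659 in sham striatum, and to 687 to 832 at 2 h and 1333 to 1636 in sham cortex. In limma at 2 h against sham, 0 of the 2 measured blood genes were called in either tissue, and of the endothelium markers 0 of 5 were called in striatum and 4 of 5 were lower in cortex. Their part in the results was not tested.

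At 24 h Egr4 and Ier3 ran opposite to each other over the arrays. In cortex Ier3 was highest on replicate 1, then 4, then 3, then 2, and Egr4 was in the reverse order. In striatum replicates 1 and 3 had the high Ier3 levels (10.21 and 10.32) and the low Egr4 levels (6.96 and 7.58). Replicates 2 and 4 had Ier3 at 9.08 and 9.16 and Egr4 at 8.97 and 9.46.

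The 6 macrophage and monocyte markers summed to 1737 to 4728 at 24 h and 1118 to 1886 in sham striatum, and to 1562 to 4702 at 24 h and 786 to 989 in sham cortex. Ccr2 was undetected in all these groups, Arg1 in both sham groups, and Ms4a7 in sham cortex. By array at 24 h they summed to 4728, 2545, 3544 and 1737 in striatum and 4702, 1562, 2600 and 4690 in cortex, so the arrays with high Ier3 had the high sums. The 6 neutrophil markers summed to 241 to 3267 at 24 h and 200 to 320 in sham striatum, and to 232 to 10583 at 24 h and 176 to 201 in sham cortex, with Mmp8 undetected in all 4 groups. The 6 striatal projection neuron markers summed to 1483, 6931, 2421 and 7257 on striatum replicates 1 to 4 at 24 h, in the order of Egr4 over these arrays. On the cortex arrays that list summed to 2737, 4836, 2167 and 4808 at 24 h, which is not the order of Egr4 there. Against sham at 24 h, 0 of its 5 measured members were called in striatum and 4 of 5 were lower in cortex. At 8 h, when the mean of Egr4 was lowest in striatum (7.90, beside 8.15 in sham), the list summed to 1898 to 3813. It summed to 3753 to 10335 at 2 h and 4127 to 9016 in sham striatum. By array at 8 h the sums were 1898, 2548, 2988 and 3813 for replicates 1 to 4, and Egr4 was highest on replicate 1 (8.62). The 2 h sums by array were 4659, 10335, 3753 and 5378, which is not the order of Egr4 there. Of 4 measured general neuron markers, Map2 (-0.50, adjusted p = 0.00113) and Syt1 (-0.36, adjusted p = 0.0196) were lower in cortex at 24 h than at 2 h. In striatum 1 of 4 was called lower between these times, Syt1 (-0.42, adjusted p = 0.0361). Their part in the results was not tested.

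**Figure D4:**
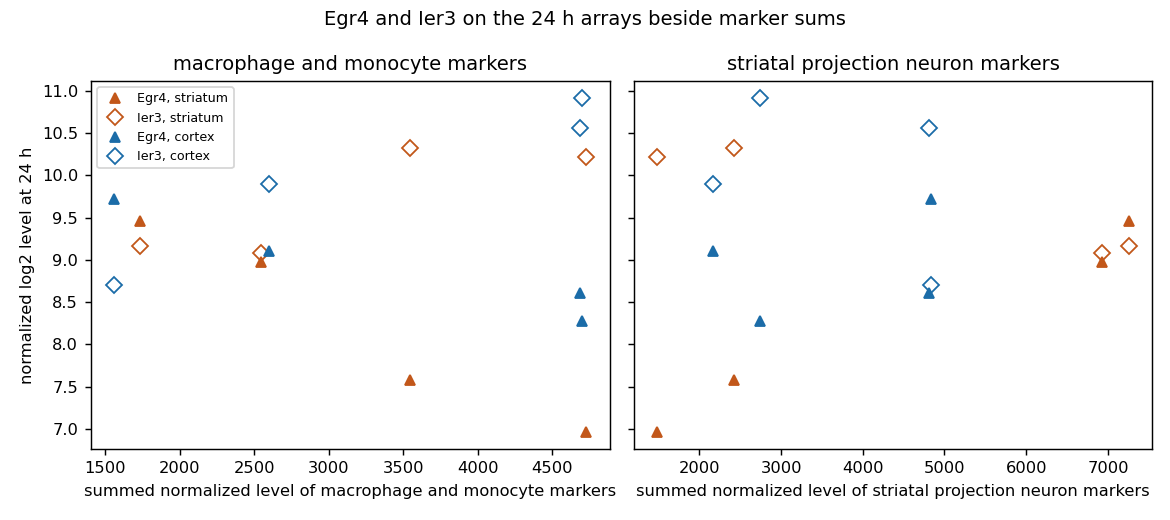
Normalized log2 level of Egr4 (filled triangles) and Ier3 (open diamonds) on the 24 h arrays of striatum (orange) and cortex (blue), against the summed normalized level of macrophage and monocyte markers (left) and striatal projection neuron markers (right). Ier3 lies at 10.21 to 10.92 on the 4 arrays with a macrophage sum of 3544 or more, and Egr4 at 6.96 to 8.61 on the same arrays.

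In sham mice Egr1 and Egr4 were lower in striatum than in cortex. Egr1 averaged 11.49 ± 0.28 in striatum and 12.29 ± 0.15 in cortex, and Egr4 8.15 ± 0.55 in striatum and 9.64 ± 0.14 in cortex (log2 level, SD, n = 4). The differences, striatum minus cortex, were -0.80 ± 0.26 (SE, adjusted p = 0.0223) and -1.49 ± 0.48 (SE, adjusted p = 0.0203). For both genes no striatum array reached the lowest cortex array. Egr2 averaged 5.81 ± 0.65 in striatum and 6.58 ± 0.06 in cortex, also without overlap, and did not pass (-0.77, adjusted p = 0.288). The share of all genes without overlap was not counted for this comparison, so the lack of overlap only describes these arrays. Ier3 averaged 8.74 ± 0.26 in striatum and 9.07 ± 0.14 in cortex and overlapped (-0.32, adjusted p = 0.474). Thus 2 of 4 were called lower, in a comparison that called 12.8% of 10162 genes lower and 13.7% higher. Egr2 (adjusted p = 0.0178) and Ier3 (0.0489) passed with the 2 groups alone.

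Cell type markers differed between the sham tissues too. All 6 oligodendrocyte markers were higher in striatum, among them Mobp (1.32, adjusted p = 2.94e-06), and their sums were 38513 to 43772 in striatum and 27651 to 31388 in cortex. Of 4 measured general neuron markers, Rbfox3 (-0.89, adjusted p = 8.48e-06) and Syt1 (-0.48, adjusted p = 0.00318) were lower in striatum, as were 5 of 5 measured cortical excitatory neuron markers. Their part in the results was not tested.

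The call for Egr1 was lost without cortex sham replicate 1 (adjusted p = 0.0665), striatum sham replicate 3 (0.0737) or striatum sham replicate 4 (0.0611). The call for Egr4 was lost without cortex sham replicate 2 (0.0506), striatum sham replicate 3 (0.0703) or striatum sham replicate 4 (0.0575). Tissue and slide cannot be told apart, since each slide held arrays of 1 tissue.

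No response to I/R was shown to differ between the tissues. The difference of the 2 h responses, striatum minus cortex, was 0.93 ± 0.68 (SE) for Egr4, 0.24 ± 0.37 for Egr1, -0.06 ± 0.73 for Egr2 and 0.14 ± 0.43 for Ier3, with adjusted p from 0.951 to 1 in limma. At 24 h it was 0.81 ± 0.68 for Egr4 and -0.01 ± 0.43 for Ier3. At 2 h, 8 h and 24 h 0 of 4 genes were called and 0 had an unadjusted p under 0.05. Of all 10162 genes, 0% were called in either direction at 2 h, 0.00984% higher and 0.00984% lower at 8 h, and 0.768% higher and 0.974% lower at 24 h. The standard errors are wide, and a difference of the size seen for Egr4 could not be told from 0.

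Ordered over all 8 groups, Egr1 ran from a mean log2 level of 13.16 in cortex at 2 h and 12.61 in striatum at 2 h down to 11.49 in sham striatum. Egr2 ran from 8.34 in cortex at 2 h to 5.81 in sham striatum, Egr4 from 10.92 in cortex at 2 h to 7.90 in striatum at 8 h, and Ier3 from 10.05 in cortex at 2 h to 8.74 in sham striatum. Each group overlapped the next in every one of these orders, except that Egr4 in sham cortex (9.64) did not overlap cortex at 8 h (8.93).

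The other 4 genes were not measurable and were not tested. Egr3 was detected on 8 of 16 striatum arrays and 9 of 16 cortex arrays and never on all 4 of a group. Its signals were 55.9 to 99.6 units in striatum and 68.9 to 104 in cortex, within or near the range in which the lowest detected probe of each array lay (53.6 to 94.0 in striatum and 66.6 to 85.4 in cortex). Ier2, Ier5 and Btg2 were detected on 0 of 16 arrays in each tissue. Their median signals were 53.9, 57.2 and 44.8 units in striatum and 51.4, 60.7 and 46.9 in cortex. Nothing can be said of their response from these probes. Because a gene entered the tests only when detected on all 4 arrays of a group, the 4 genes tested are those whose probes gave a signal.

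**Figure D5:**
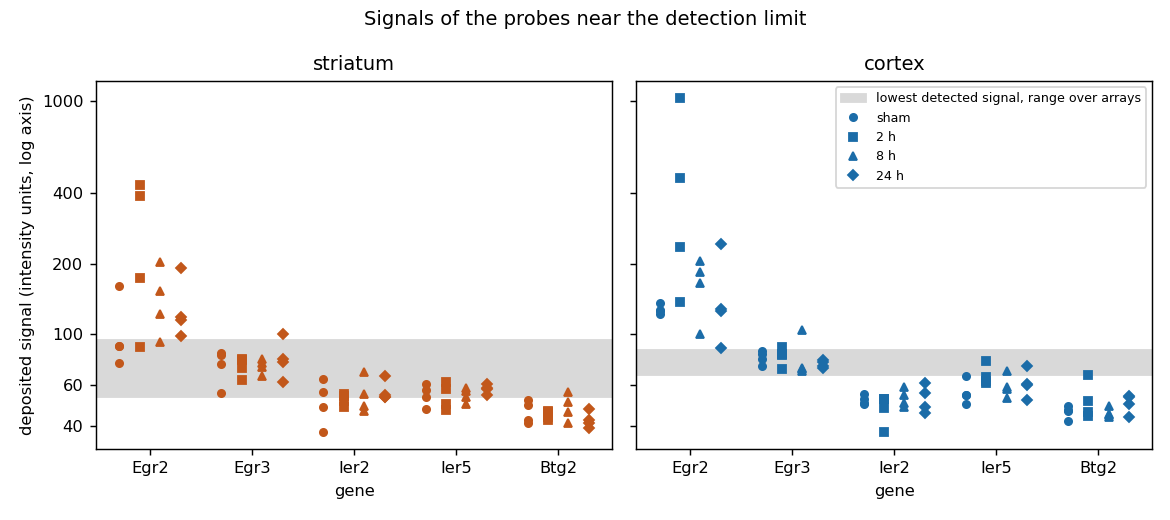
Deposited signal in intensity units (log axis) of Egr2, Egr3, Ier2, Ier5 and Btg2 on each array of striatum (left) and cortex (right), with groups sham, 2 h, 8 h and 24 h from left to right within a gene. The grey band is the range, over arrays, of the lowest detected signal. Egr2 reaches 435 units in striatum and 1031 in cortex at 2 h, both above the band, while part of its striatum arrays lie within the band, and the other probes stay within, below or just above it.

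Genes that work with these factors were counted from fixed lists, to be read against the shares of all genes called. In striatum against sham, the 2 h test called 0.121% of genes higher and 0.0603% lower, the 8 h test 1.73% higher and 1.76% lower, and the 24 h test 9.33% higher and 8.22% lower. For cortex, the 2 h test called 0.56% higher and 0.643% lower, the 8 h test 3.62% higher and 3.34% lower, and the 24 h test 6.89% higher and 7.17% lower. The corepressors Nab1 and Nab2 were measured in both tissues and 0 of 2 were called in limma at any time against sham. Their 2 h changes were 0.04 and 0.26 in striatum and 0.05 and -0.01 in cortex. Of the serum response factor and ternary complex factor genes, 3 were measured in striatum and 4 in cortex. Elk3, a ternary complex factor of vessels, rose at 24 h by 0.88 in striatum (adjusted p = 0.00559) and 1.12 in cortex (adjusted p = 0.00195). No other gene of that list was called against sham.

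Of 14 measured ERK cascade kinases 0 were called at 2 h in either tissue, and Rps6ka2 rose by 0.43 in cortex at 8 h (adjusted p = 0.0447). At 24 h 3 rose in striatum and 1 fell, among them Map2k1, an activating kinase of ERK (1.10, adjusted p = 0.00632), and 1 rose in cortex, Araf (0.63, adjusted p = 0.00751). Of 13 measured genes reported as Egr targets, 0 were called at 2 h in either tissue. Icam1, an adhesion molecule, rose by 1.12 in cortex at 8 h (adjusted p = 0.0484), Tnfrsf12a rose by 1.72 in cortex at 24 h (adjusted p = 0.0413) and Timp3, a protease inhibitor, fell by 0.65 in striatum at 24 h (adjusted p = 0.00205).

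Of the relatives of Btg2 and their deadenylase partners, 6 of the 9 on the array were measured and 0 were called at 2 h or 8 h. Btg1, the closest relative of Btg2, rose at 24 h by 0.75 in striatum (adjusted p = 0.00304) and 0.87 in cortex (adjusted p = 0.0153). Beside the Ier genes 3 others were listed: Ier5l, Sertad1 and Ier3ip1. Of these, Sertad1, a small transcriptional coregulator, rose at 2 h by 1.42 in striatum (adjusted p = 0.0138) and 1.26 in cortex (adjusted p = 0.0337). Ier5l rose by 0.93 in striatum at 24 h (adjusted p = 0.00173).

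Of the other early response genes, 4 of 42 rose and 0 fell in striatum at 2 h, with a median of 0.71, and 6 of 40 rose and 0 fell in cortex, with a median of 0.64, beside 0.121% of all genes called higher in striatum and 0.56% in cortex. Among the largest were Socs3, a feedback inhibitor of cytokine signalling (3.39 in striatum, adjusted p = 0.0373, and 2.52 in cortex, adjusted p = 0.0441), and the activity-dependent factor Npas4 (2.89, adjusted p = 0.00958, and 3.25, adjusted p = 0.0231). Fosb, an AP-1 subunit, rose by 2.54 in striatum (adjusted p = 0.0138) and 2.64 in cortex (adjusted p = 0.00322), and Junb by 2.07 (adjusted p = 0.0138) and 1.35 (adjusted p = 0.0337). From 2 h to 24 h 14 of 42 fell in striatum (8.6% of all genes) and 16 of 40 in cortex (7.21%) and 0 rose. The 2 h differences of Egr1, Egr2 and Egr4 thus stood between the list median and its largest rises.

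Genes with a like pattern were ranked over the 6 changes against sham (3 times in each of 2 tissues) among 9426 genes, by the root mean square difference of the log2 changes. The changes of a tissue share their sham arrays, so the ranks are a description. Nearest to Egr1 were Dusp1 (0.17), a phosphatase of MAP kinases, Pde4d (0.20) and Mest (0.23). Nearest to Egr2 were Junb (0.34), Fos (0.36) and Csrnp1 (0.40). Nearest to Egr4 were Mest (0.62), Nr4a2 (0.64) and Egr1 (0.64), all farther away than the neighbours of Egr1. Nearest to Ier3 were Gch1 (0.22), an enzyme of tetrahydrobiopterin synthesis, Klf6 (0.25) and Csrnp1 (0.26). Egr4 ranked 8013 of 9426 from Ier3 and Egr1 ranked 128. The ranks are not mutual. From Egr1, Egr4 ranked 3580 (0.64, beside a median of 0.67 over all genes) and Egr2 1063. From Egr2, Egr1 ranked 13 and Egr4 60.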

How the data were processed

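Messenger RNA was measured on mouse bead arrays, 32 in 8 groups of 4. Per the file headers, the deposited intensity values are BeadStudio 3.3.7 averages over the beads of a probe, not normalized. The deposited detection values are a fraction, 1 minus the detection p-value. The deposited value table of the series holds a linear ratio to the sham mean of the same tissue, found by setting it against the arrays (column medians 0.946 to 1.02), and was used as an alternative only. The table of the whole series was used: 837 of its 26534 probes had no value, and 8 columns of 1 array that matches no sample were left out. Array columns were matched to samples by name, and to the scanned arrays of the tissue tables by identical signals. All 32 had the same group by both routes. Detection p-values of cortex genes with several probes were interpolated from signal, since the cortex profile gives 1 value per gene. 0 of 32 had the same replicate number in both sources, so replicates are named by the number in the whole table. Probes were named by accession (23876), by symbol (728) or by the file's name (1093).

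Signals were background-corrected from the detection p-values with limma 3.58.1 in R 4.3.3 (offset 16), log2 transformed and quantile normalized over all 32 arrays. A probe entered a fit if some group had a detection p under 0.05 on each of its 4 arrays, and a symbol with several such probes took the one of highest mean. All groups of a tissue shared 1 fit (lmFit, eBayes with a trend). Comparisons between tissues used all 32 arrays.

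The members and gene lists were chosen with earlier results of these data known. The text names all 8 members, up to 4 called genes of a list with the largest changes in a comparison, the genes nearest to each member, and the corepressors, named after their values were seen. On simulated data for the cortex 2 h comparison (9644 genes), 70% of 1.5-fold, 92% of 2-fold and 96% of 3-fold changes were recovered, with 4 false calls. The simulation changed randomly picked genes and gave each gene 1 spread, equal in all groups. The Egr genes in cortex spread more at 2 h than in sham (Egr4 SD 0.94 and 0.14). These shares therefore need not hold for the Egr genes. Replicate numbers are not stated to pair the arrays, and the main fits used no pairing. Within a tissue, I/R arrays of the same number shared a slide. For deviations from group means, 6 of 24 same-numbered pairs in striatum and 11 of 24 in cortex correlated above 0.1. Their median correlation was -0.016 in striatum and 0.094 in cortex, beside -0.009 and -0.044 for pairs of other numbers. Alternatives were other background, scaling, filter, probe and variance settings, the tissue tables, the value table, slide or replicate number as a block, the compared groups alone, and each array left out.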

Additional observations from a re-analysis of the deposited data

Results flagged for a closer look

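Levels of Ier3 stood apart on 1 array in 2 of the 32 sets of 4 arrays examined (4 genes in 8 groups), by Dixon's criterion on the gap to the nearest array, where chance gives about 1 in 20 sets (5%). On the striatum 2 h arrays, replicate 3 had an Ier3 log2 level of 9.52, and the other 3 had 9.95 to 10.00. On the cortex sham arrays, replicate 3 had 9.27, and the other 3 had 8.98 to 9.02. Both outlying levels keep their place relative to the groups compared: striatum 2 h replicate 3 lies above all striatum sham arrays and cortex sham replicate 3 below all cortex 2 h arrays.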

How the results depend on the processing

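None of the 864 values of the genes under other settings, nor of the 1280 with 1 array left out, reversed a call. Differences that were not called changed sign in 20 and 38 of these. Under other settings 22 values gained a call and 7 lost one, and with an array left out 19 gained and 31 lost one. The number of calls among the 4 genes moved as follows. Against sham in cortex it was 1, and became 5 with the compared groups alone or with array weights, 3 with slide as a block or as a random block, and 0 with no detection filter, no variance trend or the tissue table. Against sham in striatum it was 1, and became 4 with the compared groups alone, 3 with array weights and 0 with the value table of the series. Between I/R times in cortex it was 5, and 3 with the compared groups alone. Between times in striatum it was 2, and 1 with the value table. Between sham tissues it was 2, and 4 with the compared groups alone. With 1 array left out these counts ran from 0 to 5, 1 to 4, 2 to 6, 1 to 5 and 0 to 2, in the same order, and the count of response differences stayed 0 in every setting run. The replicate block groups the I/R arrays as the slides do, so it is not independent of the slide settings. It gave 3 calls against sham in cortex and changed no other count by over 1.5 times. In cortex 8 of 16 arrays and in striatum 3 of 16 correlated best with an array of their own number. The value table holds ratios within a tissue and gives no sham tissue comparison. Egr2 dropped out where probes had to have a detection p under 0.01 on every array. The causes were not tested. Signal over background limits Egr2, Egr3, Ier2, Ier5 and Btg2.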
